A study of Mus musculus with 12 samples.

Results

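Liposarcomas of Ad/NICD mice fall into sets of high and low Pparg, and the transcripts that differ between those sets are described here. In this strain the intracellular domain of Notch1 (NICD, the active part of the receptor) is made in adipocytes. All libraries, the controls included, come from animals with this transgene on a 129 x C57BL/6 background. Of the 12 libraries, 8 are liposarcomas (LPS) from animals of 9 to 12 months and 4 are white adipose tissue (WAT) from animals of 3 weeks. Total RNA was depleted of ribosomal RNA and sequenced as stranded libraries. The labels call the libraries biological replicates. They do not say which WAT depot was taken or whether any tumours came from 1 animal, so p-values measure the spread between these samples.

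Tumours were chosen by the FPKM of Pparg (fragments per kilobase of transcript, scaled to mapped fragments). The Pparg-high set holds the 3 of 8 tumours at 50 FPKM or more (LPS 1, 3 and 7) and the Pparg-low set the 5 below 20 FPKM (LPS 2, 4, 5, 6 and 8). Pparg stood at 82.2, 94.2 and 66.5 FPKM in LPS 1, 3 and 7, and at 3.56, 10.3, 6.43, 2.93 and 16.4 FPKM in LPS 2, 4, 5, 6 and 8. The tumours nearest the limits were thus LPS 7, inside at 66.5 FPKM, and LPS 8, outside at 16.4 FPKM. WAT 1 to 4 stood at 101, 70.4, 87.5 and 134 FPKM, a range that the Pparg-high tumours overlap. Ages were 11, 10 and 11 months in the Pparg-high set and 9, 12, 11, 9 and 10 months in the Pparg-low set, and both sets held tumours of both sexes by Xist and Y-linked rows.

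PPARG is a nuclear receptor that binds DNA as a partner of RXR and directs the differentiation of fat cells. Its targets in adipocytes serve fatty acid uptake, binding and storage. Fatty acid binding protein 4 (Fabp4) and the fatty acid receptor Cd36 are classical targets, and both are also expressed by capillary endothelium and macrophages. In bulk tissue, fewer cells of a type and less RNA per cell cannot be told apart.

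A row of the table was tested when it reached 1 FPKM in at least 3 of the 8 tumours, and Pparg itself was left out. It was called when the adjusted p of limma, a linear model fitted across all rows on log2(FPKM + 1), was below 0.05. Of 13895 rows tested, 105 were higher in the Pparg-high set (0.756%) and 19 were lower (0.137%), against 2128 with an unadjusted p under 0.05. The 2 sets did not overlap in 1034 rows on the high side (7.44%) and 416 on the low side (2.99%), the called rows among them. The median log2 difference, Pparg-high minus Pparg-low, was 2.29 over the rows called higher, -1.62 over those called lower and 0.08 over all rows tested. Of the rows called higher, 35 reached 1 FPKM only in the 3 Pparg-high tumours. Such a row passed the filter through the set where it was high, so it had to differ, and its p is no support. Among the genes named these are Mamdc2, Ghrh, Enpp2, Slc4a11, Ntf3, Mrap, Slc4a4, Ptger3, Adrb1, Tbx5, Aff3, Phgdh and the joined row of Xlr5a and Xlr5c. Any adjusted p printed for them below is a description only. Quantile normalization gave 97 higher and 33 lower. Leaving out 1 tumour at a time gave 47 to 133 higher and 4 to 43 lower. In all 8 of those fits 31 higher rows and 1 lower row were called, and for other genes the tumours that decided the call are named. The 31 include rows that passed the filter through the Pparg-high set alone, among them all those named above except Ghrh, Adrb1 and Tbx5. The fits kept the rows of the filter on all 8 tumours, so for such rows this count is no support.

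**Figure D1:**
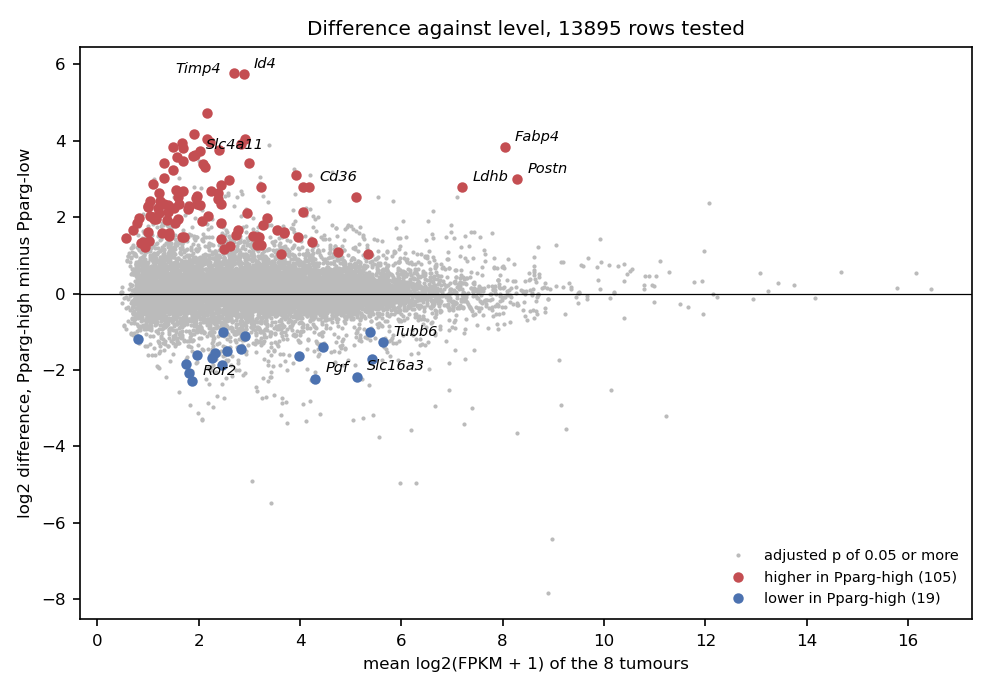
Each point is 1 of the 13895 rows tested, by its mean level in the 8 tumours (x axis, log2(FPKM + 1)) and its difference between the Pparg-high and Pparg-low sets (y axis, log2). The 105 higher rows (red) reach 5.77, while 31 rows with a difference of 3 or more either way were not called.

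LPS 5 stood apart from the other libraries: the predicted gene Gm10800 read 361556 FPKM there against at most 3340 FPKM elsewhere, and its rows had a median ratio of 0.814 to the mean of the libraries. Without LPS 5 there were 79 higher and 18 lower rows. On the first principal component of the 8 tumours, which held 28.9% of the variance, LPS 1, 3 and 7 lay at -47.0, -53.4 and -28.5 and the Pparg-low tumours between 7.85 and 41.9. No fragment totals are in the table. By the smallest values that occur, LPS 1 was the shallowest library and LPS 7 the deepest tumour, at 2.09 times its depth.

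Fabp4, Timp4 and Id4 were the markers named with the split, so their values describe it and are no test of it. Fabp4 (chr3:10204088-10208576, minus strand, GRCm38) read 2000.5, 1229 and 1069.8 FPKM in LPS 1, 3 and 7, and 104, 66.4, 111, 79.4 and 135 FPKM in the Pparg-low tumours. The mean was 1433 ± 498 FPKM (SD, n = 3) against 99.2 ± 26.9 (SD, n = 5), a ratio of 14.5, with no overlap. WAT 1 to 4 read 6301, 7094, 7676 and 7688 FPKM, so that the Pparg-high tumours lay between the Pparg-low tumours and fat.

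Timp4, an inhibitor of matrix metalloproteinases, was at the level of fat in the Pparg-high tumours and almost absent from the others. It read 65.3, 74.9 and 97.9 FPKM in LPS 1, 3 and 7, and 0, 1.43, 0.573, 0 and 0.688 FPKM in LPS 2, 4, 5, 6 and 8. WAT 1 to 4 read 36.0, 34.8, 62.6 and 106 FPKM, and the log2 difference from WAT was 0.53 in the Pparg-high set (limma adjusted p = 0.324) and -5.24 in the Pparg-low set (adjusted p = 1.73e-07). The difference between the tumour sets, 5.77 on the log2 scale (SE 0.31), was the largest among the called rows.

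Id4, a helix-loop-helix protein that blocks the DNA binding of related factors, differed from Timp4 in that fat had little of it. It read 66.4, 122 and 85.0 FPKM in LPS 1, 3 and 7, and 0.149, 1.27, 0.665, 1.23 and 0.298 FPKM in the Pparg-low tumours. WAT 1 to 4 read 1.60, 1.72, 1.49 and 3.60 FPKM. Its level in the Pparg-high tumours was thus above both other groups, by 5.75 on the log2 scale against the Pparg-low tumours (SE 0.29) and by 4.90 against WAT. The 3 other ID genes were not called: Id1, Id2 and Id3 differed by -0.57, 1.5 and -0.48, and each overlapped between the sets.

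**Figure D2:**
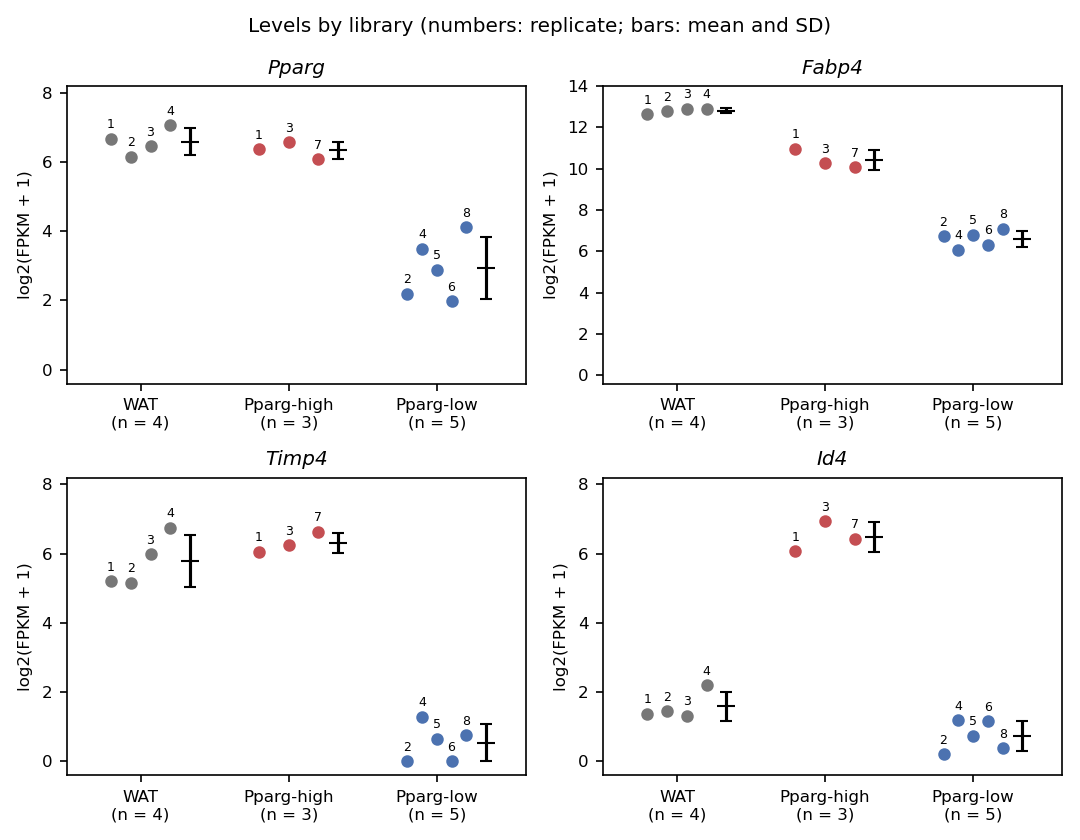
Levels of Pparg, Fabp4, Timp4 and Id4 on a log2(FPKM + 1) scale, 1 point per library with its replicate number, and mean and SD beside each group of 4 WAT, 3 Pparg-high and 5 Pparg-low libraries. Timp4 in LPS 1, 3 and 7 (65.3 to 97.9 FPKM) overlaps WAT, whereas Id4 is high in those tumours alone among these libraries.

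Timp4 also lies near Pparg on the chromosome. It occupies chr6:115241892-115252205 (minus strand), inside the locus of the synapsin gene Syn2 (chr6:115134902-115282006, plus strand), and starts 109 kb before Pparg (chr6:115360951-115490399, plus strand). Syn2 averaged 0.388 FPKM in the Pparg-high and 0.187 FPKM in the Pparg-low tumours. Timp4 overlaps a Syn2 exon in GENCODE M21, and the sources used here do not say whether counting used strand. Of the 20 tested genes that start within 1 Mb of Pparg, Timp4 was called and the 19 others were not, with log2 differences between -0.36 and 0.52. None of the 8 tested genes within 1 Mb of Id4 (chr13:48261228-48266026, plus strand) was called, with differences between -0.50 and 0.48. The antisense row A330033J07Rik, which starts 1.4 kb from the start of Id4, averaged 1.49 FPKM in the Pparg-high and 0.0641 FPKM in the Pparg-low tumours and could share its reads.

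**Figure D3:**
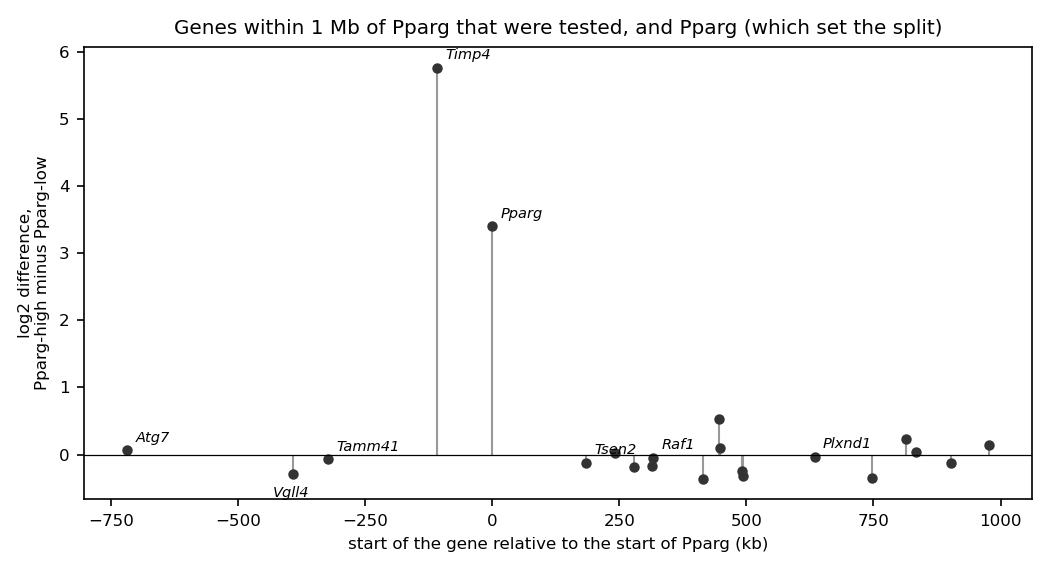
Log2 difference between the tumour sets (y axis) for the tested genes whose start lies within 1 Mb of that of Pparg (x axis, kb), with Pparg itself for orientation. Timp4, 109 kb before Pparg, stands at 5.77 and the 19 other tested genes between -0.36 and 0.52.

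Other called rows had a called neighbour too. Of 520 tested rows within 200 kb of a row called higher, 13 were called higher themselves (2.50%, against 0.756% of all rows tested), in 7 pairs. Cela1 and Smagp lie 37.6 kb apart, and F8a, Zfp275 and the joined row of Xlr5a and Xlr5c share a stretch of chromosome X. F8a and the joined row are given at the same locus, 49.6 kb from Zfp275, so their pairs with Zfp275 are not separate cases. Xlr5a/Xlr5c read 9.72, 42.7 and 25.0 FPKM in LPS 1, 3 and 7 and at most 0.715 FPKM in the Pparg-low tumours. That row passed the filter through the Pparg-high tumours alone, so its call is no support. F8a read 17.9, 39.9 and 12.6 against 1.27 to 2.87 FPKM, and Zfp275, a zinc finger gene, 44.8, 67.2 and 22.9 against 6.52 to 11.0 FPKM. The Xlr5 genes are near-identical copies, so their reads may be split. These pairs were picked after the values were seen, and the calls of Zfp275 (lost without LPS 1 or 2) and Smagp (without any tumour but LPS 1 or 6) rest on those tumours, with adjusted p between 0.0520 and 0.0922 in these fits.

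The 250 bases upstream of a start site were read for the letters of a PPARG site. PPARG and RXR bind a direct repeat of AGGTCA spaced by 1 base. Of the 102 single-name genes called higher, 64 were in RefSeq's promoter table (GRCm38.p6), and Fabp4 was not. The half-site AGGTCA, on either strand, occurred in a window of 15 of these 64 genes (23.4%) and of 15.8% of all genes in the table. The looser repeat AGGNCANAGGNCA, on either strand, occurred in 1 of the 64 (1.56%) and in 0.400% of all genes. The windows of the 2 largest differences are shown with those of Cd36, which holds a half-site, and Olfm2, the gene with the repeat, whose call was lost without LPS 1 or 3 (limma adjusted p 0.0505 to 0.0609). They run 5' to 3', with a half-site or repeat in capitals. Timp4 and Id4 hold neither, which says only that these letters are not in these windows. Olfm2 has further windows that are not shown. The window at chr9:20746297-20746546, which spans the annotated start of the gene (chr9:20746349), and that at chr9:20727004-20727253 hold neither as well.
Timp4 (chr6:115252206-115252455, minus strand): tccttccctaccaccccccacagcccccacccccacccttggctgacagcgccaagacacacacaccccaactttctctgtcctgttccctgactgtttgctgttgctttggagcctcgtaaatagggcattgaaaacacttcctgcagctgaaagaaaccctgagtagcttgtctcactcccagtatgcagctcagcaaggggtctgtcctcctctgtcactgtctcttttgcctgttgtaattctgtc
Id4 (chr13:48260866-48261115, plus strand): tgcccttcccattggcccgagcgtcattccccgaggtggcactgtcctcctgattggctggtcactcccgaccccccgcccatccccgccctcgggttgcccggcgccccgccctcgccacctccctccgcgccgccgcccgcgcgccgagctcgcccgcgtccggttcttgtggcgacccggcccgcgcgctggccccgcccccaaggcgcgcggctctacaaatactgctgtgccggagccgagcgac
Cd36 (chr5:17835897-17836146, minus strand): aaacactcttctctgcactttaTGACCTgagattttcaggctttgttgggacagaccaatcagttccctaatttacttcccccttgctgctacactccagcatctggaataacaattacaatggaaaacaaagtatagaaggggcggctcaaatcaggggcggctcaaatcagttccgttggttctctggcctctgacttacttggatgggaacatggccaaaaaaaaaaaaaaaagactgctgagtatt
Olfm2 (chr9:20728230-20728479, minus strand): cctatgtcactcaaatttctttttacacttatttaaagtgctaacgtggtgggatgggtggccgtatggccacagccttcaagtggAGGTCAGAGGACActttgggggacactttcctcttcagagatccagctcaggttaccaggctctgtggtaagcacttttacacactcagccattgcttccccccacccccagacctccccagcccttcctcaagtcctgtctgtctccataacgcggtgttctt

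Further genes of transcription were called. Aff3, a nuclear transcription factor, differed by 2.62 (limma adjusted p = 0.00364) and read 5.50 to 13.1 FPKM in WAT. Tbx5, a T-box factor of heart and forelimb, read 11.4, 24.2 and 3.26 FPKM in LPS 1, 3 and 7 and at most 0.142 FPKM in the Pparg-low tumours, and its call was lost without LPS 1 (adjusted p = 0.0584). Aff3 and Tbx5 passed the filter through the Pparg-high tumours alone, so their p is no support.

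Several receptors and 1 of their helpers were called. Gcgr, the glucagon receptor, read 26.1, 41.9 and 13.9 FPKM in LPS 1, 3 and 7 and 0.475, 1.22, 0.0299, 0.0581 and 2.64 FPKM in the Pparg-low tumours (log2 difference 3.96, SE 0.48, limma adjusted p = 0.00744). WAT held 0.227 to 0.569 FPKM of it. Mrap, an accessory protein that brings the melanocortin 2 receptor to the cell surface, read 12.1, 18.2 and 11.3 FPKM against at most 0.707 FPKM (difference 3.48, adjusted p = 0.000637). In contrast to Gcgr, Mrap was abundant in fat, at 76.0 to 164 FPKM. Mrap passed the filter through the Pparg-high tumours alone, so its p is no support.

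Gipr, the receptor for the gut hormone GIP, read 57.6, 74.6 and 12.3 FPKM in LPS 1, 3 and 7 and 1.00 to 2.88 FPKM in the Pparg-low tumours, a difference of 3.92 (SE 0.52). Its limma adjusted p was 0.0127, and 0.0530 without LPS 1. The prostaglandin E receptors Ptger2 and Ptger3 differed by 2.55 (adjusted p = 0.00401) and 2.27 (adjusted p = 0.00721). Ptger2 was lower in fat than in the Pparg-high tumours, at 1.19 to 2.23 FPKM, and Ptger3 ranged from 4.94 to 40.2 FPKM there. Adrb1, the beta-1 adrenergic receptor, read 5.51, 24.8 and 3.83 FPKM against at most 0.297 FPKM, and its call was lost without LPS 1, 2, 4, 5 or 8 (adjusted p 0.0510 to 0.0619). Ptger3 and Adrb1 passed the filter through the Pparg-high tumours alone, so their p is no support.

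Of the secreted ligands, Ntf3, a neurotrophin, read 8.65, 30.7 and 8.09 FPKM in LPS 1, 3 and 7 and 0.0852, 0.111, 0.108, 0 and 0.652 FPKM in the Pparg-low tumours (log2 difference 3.58, SE 0.40, limma adjusted p = 0.00473). Ghrh, the hypothalamic hormone that releases growth hormone, read 6.71, 7.59 and 70.8 FPKM against at most 0.513 FPKM. One tumour, LPS 7, thus held most of it, and the call was lost without LPS 2, 4, 5, 6 or 8 (adjusted p 0.0568 to 0.0861). Ntf3 and Ghrh passed the filter through the Pparg-high tumours alone, so their p is no support. Igf1, the main growth factor downstream of growth hormone, read 87.1, 110 and 34.8 FPKM against 3.01 to 30.8 FPKM and was not called (limma adjusted p = 0.0854), although its sets did not overlap. Without LPS 6 its adjusted p was 0.0207, and with the Xist level as a covariate 0.0440.

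Ion transporters were called too. Slc4a11, a transporter of the bicarbonate transporter family, read 19.0, 17.0 and 16 FPKM in LPS 1, 3 and 7 and 0.433, 0.486, 0.400, 0.545 and 0.591 FPKM in the Pparg-low tumours. Its difference was 3.62 (SE 0.17, limma adjusted p = 3.73e-05), for a row that passed the filter through the Pparg-high tumours alone, and WAT read 1.35 to 1.99 FPKM. Slc4a4, a sodium bicarbonate cotransporter, read 7.36, 13.7 and 11.0 against at most 0.645 FPKM (difference 3.23, adjusted p = 0.000637), and Car5b, a mitochondrial carbonic anhydrase, differed by 2.34 (adjusted p = 0.00473). Both were higher in fat than in the Pparg-high tumours, at 14.2 to 22.1 and 61.3 to 65.0 FPKM. Slc4a4, like Slc4a11, passed the filter through the Pparg-high tumours alone, so the p of either is no support.

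Enzymes of several pathways were called. Enpp2 encodes autotaxin, the secreted enzyme that makes lysophosphatidic acid, and read 8.14, 25.0 and 36.2 FPKM in LPS 1, 3 and 7, 0.354 to 0.859 FPKM in the Pparg-low tumours and 33.5 to 57.8 FPKM in WAT (log2 difference 3.74, SE 0.40, limma adjusted p = 0.00401). Pde10a, a cyclic nucleotide phosphodiesterase, differed by 3.40 (adjusted p = 0.00401), Ckb, the brain-type creatine kinase, by 2.79 (adjusted p = 0.00606) and Phgdh, the first enzyme of serine synthesis, by 2.31 (adjusted p = 0.0106). Cela1, an elastase, read 18.6, 26.6 and 35.3 against 0.279 to 2.70 FPKM (difference 3.76, adjusted p = 0.00166). Heph, a copper ferroxidase, differed by 2.25 and S100a1, a calcium-binding protein, by 3.11 (adjusted p = 0.00467 and 0.00196). With a filter of 5 FPKM Heph was not called (0.0837). Nt5c1a, a cytosolic nucleotidase, read 30.6, 60.4 and 7.82 FPKM against 0.301 to 1.37 FPKM, with an adjusted p of 0.0127 that became 0.0541 without LPS 1. Enpp2 and Phgdh passed the filter through the Pparg-high tumours alone, so their p is no support.

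A pair of genes of lactate handling was called in opposite directions. Ldhb, the lactate dehydrogenase subunit that favours pyruvate, read 245, 843 and 562 FPKM in LPS 1, 3 and 7 and 70.7, 89.3, 38.5, 91.7 and 76.7 FPKM in the Pparg-low tumours. Slc16a3, the lactate exporter MCT4, read 7.19, 18.7 and 14.5 FPKM against 97.5, 55.1, 65.9, 59.8 and 37.0 FPKM. Neither gene overlapped between the sets. The differences were 2.78 (SE 0.42, limma adjusted p = 0.0195) and -2.17 (SE 0.35, adjusted p = 0.0239). The call of Ldhb was lost without LPS 2 or 3 (adjusted p 0.0513 to 0.0567) and that of Slc16a3 without LPS 1, 2, 4 or 5 (0.0567 to 0.0720). These 2 genes were set side by side after their values were seen. No gene of the 23 tested of hypoxia and glycolysis was called (median difference -0.40). Of those 23 differences 18 were negative and 5 positive, whereas 59.2% of all rows tested were positive.

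Matrix genes were called in small number. Postn, periostin, read 1526, 1155 and 819.7 FPKM in LPS 1, 3 and 7 and 141, 57.6, 272, 140 and 185 FPKM in the Pparg-low tumours (log2 difference 2.99, SE 0.45, limma adjusted p = 0.0206). Its call was lost without LPS 1, 2 or 3 (adjusted p 0.0578 to 0.0822). Postn was the only one of 24 fibrillar and structural matrix genes called, beside 0.756% of all rows called higher. Tnxb, tenascin X, read 58.6, 96.1 and 13.2 against 1.21 to 2.53 FPKM, and WAT read 31.5 to 49.0 FPKM. It differed by 4.04 (adjusted p = 0.0127, and 0.0537 without LPS 1). Mamdc2, a secreted proteoglycan, read 7.25, 24.0 and 15 against at most 0.189 FPKM (difference 3.83, adjusted p = 0.000985), and Col13a1, a transmembrane collagen, differed by 1.96 (adjusted p = 0.00467, and 0.0952 with a filter of 5 FPKM). Mamdc2 passed the filter through the Pparg-high tumours alone, so its p is no support.

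Of the 4 TIMP genes only Timp4, named with the split, was called, beside 0.756% of all rows called higher. Timp1 read 4.30, 0.681 and 17.0 FPKM in LPS 1, 3 and 7 and 31.6, 27.3, 74.6, 39.2 and 27.2 FPKM in the Pparg-low tumours, without overlap and opposite in direction to Timp4. Its difference of -2.81 was not called (limma adjusted p = 0.114, and 0.0146 without LPS 7), and neither were those of Timp2 (0.26) and Timp3 (1.61). Of 11 matrix metalloproteinase genes none was called.

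**Figure D4:**
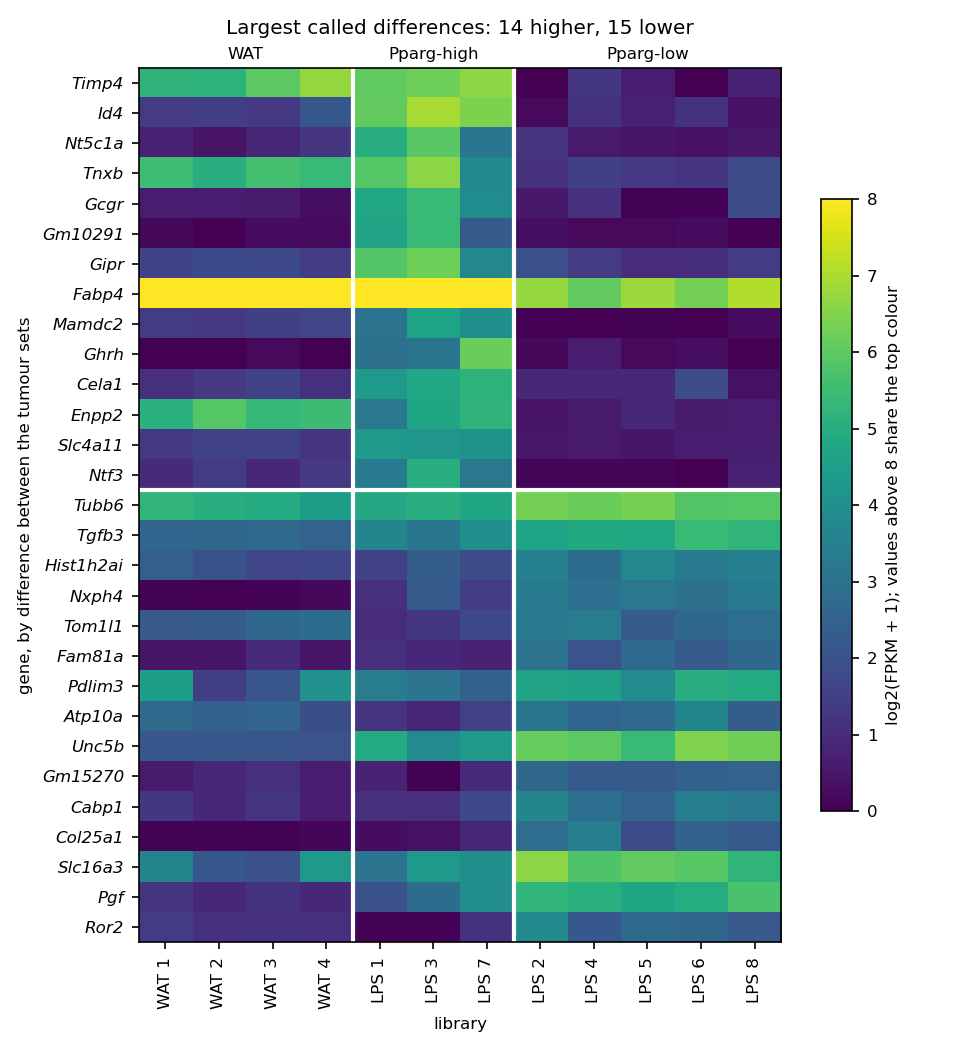
Called genes with the largest differences (rows, 14 higher and 15 lower) in the 12 libraries (columns), coloured by log2(FPKM + 1), with white lines between WAT, Pparg-high and Pparg-low libraries. Gcgr and Ghrh are dark in WAT and the Pparg-low tumours, whereas Timp4, Tnxb and Enpp2 are bright in WAT too.

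Fat itself divided the genes called higher. Of the 105, 37 had a WAT mean above that of the Pparg-high tumours, 50 lay between the 2 tumour sets and 18 were below the Pparg-low mean, and 17 averaged under 1 FPKM in WAT. Fabp4, Mrap, S100a1 and Enpp2 belong to the first kind, and Gcgr is among the 17 under 1 FPKM in WAT. These positions were not counted over all rows tested, so they describe the called rows only. WAT as labelled expressed Adipoq at 514 to 631 FPKM, and also Ucp1, a gene of thermogenic fat, at 376 to 801 FPKM. Against WAT, 2508 of 15400 rows (16.3%) were higher and 3319 (21.6%) lower in the Pparg-high set, and 2895 (18.8%) higher and 4444 (28.9%) lower in the Pparg-low set, and both comparisons share the WAT libraries. Quantile normalization turned these splits to 3278 higher and 3052 lower, and 4315 higher and 3645 lower.

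Of 35 tested PPARG target genes, 5 were higher in the Pparg-high tumours (0.756% of all rows were), none was lower and the median log2 difference was 0.67, with 29 of 35 positive (59.2% of all rows tested were positive). The sets did not overlap for 14 of them, all on the high side, beside 7.44% of all rows. The 5 count Fabp4, which was named with the split, and include Cd36, Pex11a and Vldlr. Cd36, a membrane receptor for fatty acids, read 73.2, 74.3 and 39.7 FPKM in LPS 1, 3 and 7, and 8.81, 5.44, 11.1, 3.68 and 13.9 FPKM in the Pparg-low tumours (difference 2.79, SE 0.39, limma adjusted p = 0.0139). WAT 1 to 4 read 565, 583, 696 and 534 FPKM. The call of Cd36 was lost without LPS 1 or 3 (adjusted p 0.0505 to 0.0622).

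Pex11a, a peroxisome division factor, differed by 2.22 (limma adjusted p = 0.0195), and Vldlr, a lipoprotein receptor, by 1.92 (adjusted p = 0.0293). Each was lost in some fits without 1 tumour: Pex11a without LPS 1, 2, 3 or 4 (0.0503 to 0.0579) and Vldlr without LPS 1, 3, 4, 5, 7 or 8 (0.0535 to 0.0868). Other targets were not called. Plin2, the lipid droplet protein most abundant among these, read 96.7, 99.2 and 69.1 FPKM against 38.3 to 65.1 FPKM (adjusted p = 0.134), without overlap. Lpl, lipoprotein lipase, read 80.1, 28.4 and 10.7 FPKM against 4.74 to 12.4 FPKM (adjusted p = 0.199, and 0.0494 without LPS 7). Plin1, the droplet coat of mature adipocytes, read 32.2, 2.42 and 0.594 FPKM against 0.0831 to 1.71 FPKM, with LPS 1 far above the rest (adjusted p = 0.312).

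Both sets were far below the fat of 3-week animals for these genes. Of 47 PPARG targets tested against WAT, 44 were lower in the Pparg-high set and 45 in the Pparg-low set, beside 21.6% and 28.9% of all rows. Of 31 mature adipocyte markers, 30 and 31 were lower. Adipoq, adiponectin, read 0.243, 0.245 and 1.60 FPKM in LPS 1, 3 and 7 and 0.0433, 0.339, 4.26, 0.475 and 0.284 FPKM in the Pparg-low tumours. It overlapped between the sets and failed the filter, and none of 18 mature adipocyte markers tested between the sets was called (median 0.24). The Pparg-high tumours therefore had Pparg and Timp4 at levels that overlapped WAT while Adipoq and Plin1 did not overlap it.

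**Figure D5:**
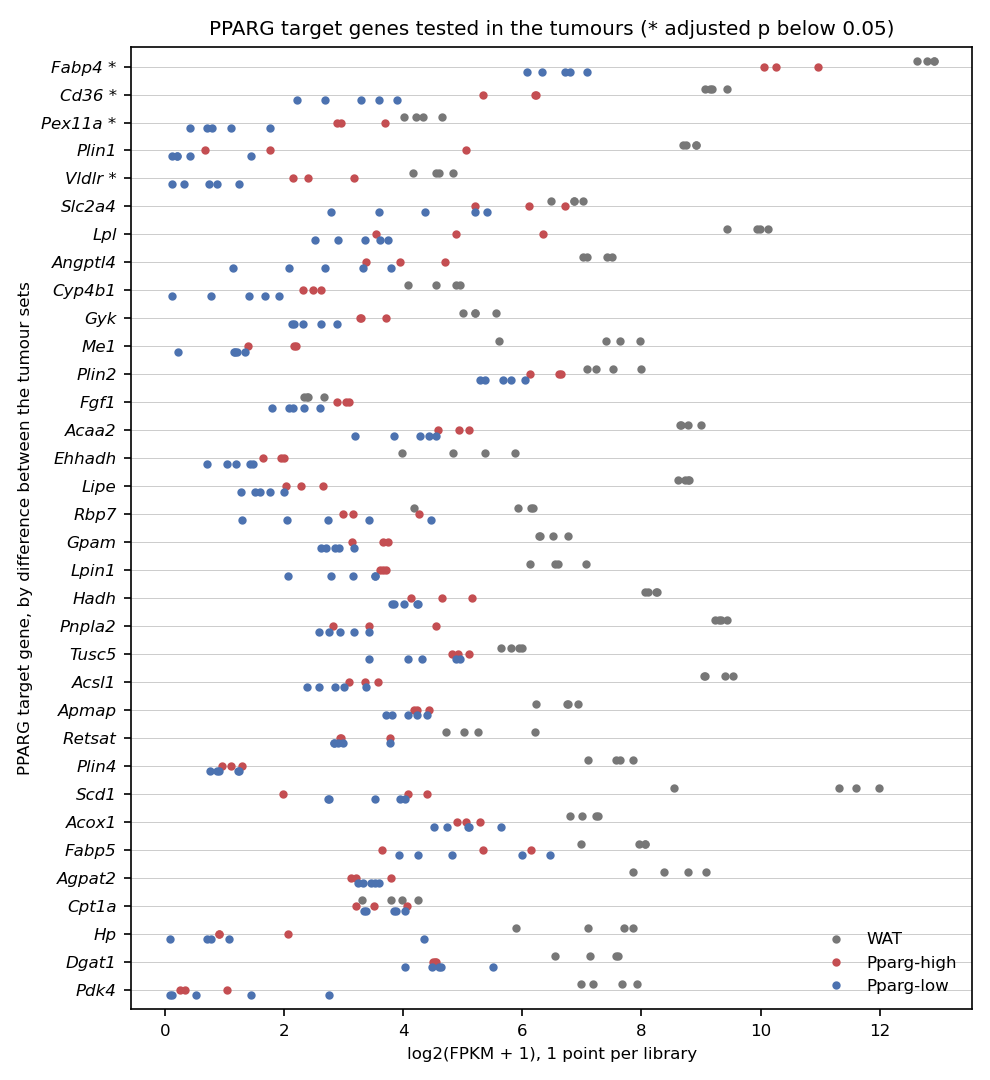
PPARG target genes tested between the tumour sets (34 of the 35, by difference; 1 is not reported here), with the log2(FPKM + 1) of each library as 1 point and called genes starred. Fabp4, Cd36, Pex11a and Vldlr show apart sets of 3 Pparg-high and 5 Pparg-low points, and WAT lies to the right for most genes.

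No partner of PPARG was called. Rxra, its dimer partner, read 26.1, 29.2 and 34.4 FPKM in LPS 1, 3 and 7 and 17.5, 25.7, 14, 22.9 and 27.7 FPKM in the Pparg-low tumours (log2 difference 0.48, limma adjusted p = 0.365). None of 23 partners and cofactors was called (median 0.17, 19 positive). Cebpa, the factor that works with PPARG in late adipogenesis, read 7.00, 3.51 and 9.24 FPKM against 1.95 to 5.54 FPKM, overlapping, and 167 to 192 FPKM in WAT. Of 18 adipogenic transcription factors only Id4, named with the split, was called (median 0.41), beside 0.756% of all rows called higher. Among fatty acid binding proteins 1 of 4 was called, beside the same 0.756%, and it was Fabp4, also named with the split. Fabp5 stood at 11.5 to 70.0 FPKM in the Pparg-high and 14.2 to 87.5 FPKM in the Pparg-low tumours. Fatty acid oxidation (19 genes, median 0.25) and thermogenic genes (8 genes, median -0.07) had no call.

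The lower side was smaller and less stable. Gm15270, a predicted gene, read 0.713, 0.0395 and 0.991 FPKM in LPS 1, 3 and 7 and 3.81 to 5.57 FPKM in the Pparg-low tumours (log2 difference -1.84, limma adjusted p = 0.0127), and was the 1 lower row called in every fit without 1 tumour. A pseudocount of 0.1 gave it an adjusted p of 0.0556. Tubb6, a beta-tubulin, read 27.6, 31.5 and 25.2 FPKM against 78.9, 72.2, 80.4, 56.4 and 58.9 FPKM, with a difference of -1.26 (SE 0.18) and an adjusted p of 0.0143, which became 0.0660 without LPS 1. WAT read 20.9 to 36.6 FPKM, close to the Pparg-high tumours. Of the 19 lower rows, 11 had a WAT mean below that of the Pparg-high tumours, 7 lay between the sets and 1 was above. These positions too were not counted over all rows tested.

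Signalling genes were among the lower rows. Pgf, placental growth factor, a ligand of the VEGF family, read 3.00, 6.05 and 14.1 FPKM in LPS 1, 3 and 7 and 37.3, 32.9, 25.0, 30.0 and 51.3 FPKM in the Pparg-low tumours (log2 difference -2.23, SE 0.39, limma adjusted p = 0.0358). Ror2, a receptor for Wnt5a, read 0.0525, 0.0649 and 1.25 FPKM against 3.64 to 12.9 FPKM (difference -2.29, adjusted p = 0.0355). Unc5b, a netrin receptor, read 28.7, 13.4 and 19.0 FPKM against 42.3 to 86.8 FPKM (difference -1.70, adjusted p = 0.0293). The calls of Pgf and Ror2 were lost in each fit without a tumour other than LPS 7 (adjusted p 0.0520 to 0.138), and that of Unc5b without LPS 2, 3, 4, 7 or 8 (0.0666 to 0.0890).

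In the TGF-beta and BMP pathway 2 of 19 genes were higher and 1 was lower, beside 0.756% and 0.137% of all rows (median -0.16). The ligand Tgfb3 read 11.5, 7.82 and 14.7 FPKM in LPS 1, 3 and 7 against 23.9 to 40.9 FPKM (log2 difference -1.39, limma adjusted p = 0.0336). Tgfbr3, the co-receptor betaglycan, read 22.0, 33.2 and 20.7 against 6.01 to 13.8 FPKM (difference 1.59, adjusted p = 0.0336), and Fst, the activin antagonist follistatin, 13.2, 10.2 and 4.27 against 0.0240 to 2.68 FPKM (difference 2.70, adjusted p = 0.0355). The 3 calls were not stable to leaving out a tumour: Tgfb3 was lost without LPS 1, 2, 3, 4, 5 or 8, Tgfbr3 without any tumour but LPS 8, and Fst without LPS 1, 2, 3, 4, 6 or 8 (adjusted p 0.0502 to 0.139).

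No gene of the transgene's own pathway was called. Notch1 read 62.9, 79.0 and 44.2 FPKM in LPS 1, 3 and 7 and 84.6, 55.5, 45.4, 79.6 and 60.7 FPKM in the Pparg-low tumours (log2 difference -0.07, SE 0.26, limma adjusted p = 0.924), and these values include any reads of the transgene. None of 17 Notch receptors and ligands (median 0.33) and none of 9 Notch targets (median -0.10) was called. Cdkn2a, the locus of the p16 and ARF tumour suppressors, read 46.3, 0.793 and 39.9 FPKM against 11.4 to 73.0 FPKM, with LPS 3 far below the rest. Rgs5, a pericyte gene, read 2068, 2658 and 3072 FPKM against 2501 to 4326 FPKM, above the 69.2 to 88.4 FPKM of WAT in every tumour, and none of 24 pericyte markers was called between the sets (median 0.08).

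Cell cycle genes lay lower in the Pparg-high set without a call. Of 26 tested, 25 differences were negative with a median of -0.96, the lowest adjusted p of limma was 0.120, and 3 genes did not overlap between the sets, beside 2.99% of all rows on the low side. The summed level of the list was 164 to 379 FPKM in the Pparg-high and 363 to 693 FPKM in the Pparg-low tumours. Mki67, the proliferation marker, read 12.7, 21.3 and 6.55 FPKM in LPS 1, 3 and 7 against 19.2 to 31.7 FPKM, so the sets overlapped. Against WAT 3 of 26 genes were higher in the Pparg-high set and 21 of 26 in the Pparg-low set, beside 16.3% and 18.8% of all rows, and the difference between these counts was not tested.

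Interferon response genes lay the other way. All 19 tested had positive differences, beside 59.2% of all rows, with a median of 1.03. The sets did not overlap for 9 of them, beside 7.44% of all rows, and none was called (lowest limma adjusted p 0.0627). Their summed level was 740 to 983 FPKM in the Pparg-high and 243 to 750 FPKM in the Pparg-low tumours. Gbp3, a guanylate-binding protein, read 72.3, 65.9 and 59.1 FPKM in LPS 1, 3 and 7 against 10.7 to 32.5 FPKM.

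Markers of other cell types moved in part with the split, and their share in the results was not tested. Of 14 genes of fat and muscle capillaries, 4 were called higher, namely Timp4, Fabp4, Cd36 and Cd300lg, beside 0.756% of all rows. Timp4 and Fabp4 were named with the split and are no test of it. The summed level was 1292 to 2308 FPKM in the Pparg-high and 164 to 298 FPKM in the Pparg-low tumours, most of it Fabp4. Cd300lg, a capillary endothelial receptor, read 26.3, 71.5 and 14.6 against 2.29 to 6.12 FPKM, and its call was lost without LPS 1, 2, 4, 5 or 6 (adjusted p 0.0544 to 0.0907). Gpihbp1, which anchors lipoprotein lipase on capillaries, read 11.8, 42.7 and 21.5 FPKM against 10.7 to 29.6 FPKM and overlapped. None of 19 general endothelial markers was called (median 0.04, summed level 312 to 491 against 286 to 423 FPKM).

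No leukocyte marker list had a call, and the medians went both ways. Over 19 macrophage markers the median was 0.71 (17 positive), with summed levels of 583 to 1325 FPKM in the Pparg-high and 408 to 1051 FPKM in the Pparg-low tumours. All 7 tested T and NK cell markers were positive (median 1.29), with 19.0 to 76.6 against 4.38 to 21.9 FPKM. Over 9 mast cell and granulocyte markers the median was -0.45, with 8 negative. Of 28 immunoglobulin variable genes tested 4 were called higher, beside 0.756% of all rows, such as Ighv1-53 (7.64, 6.28 and 3.64 against 0.290 to 1.14 FPKM), while the defining B cell gene Cd79a was under 1 FPKM in every tumour and none of 3 B and plasma cell markers tested was called. The variable genes are near-identical copies whose reads may be split.

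In the nerve list Pmp22, a myelin protein that fat also holds, read 19.6, 31.5 and 20 FPKM against 2.70 to 7.12 FPKM (log2 difference 1.99, limma adjusted p = 0.0135). It was the 1 call among 6 genes, beside 0.756% of all rows called higher. The nerve list summed to 94.6 to 104 FPKM in the Pparg-high and 16 to 48.6 FPKM in the Pparg-low tumours. Alpl, alkaline phosphatase, was the 1 call among 8 bone and cartilage genes (adjusted p = 0.0407), beside 0.756% of all rows called higher. It read 17.6, 116 and 18.5 against 0.678 to 3.63 FPKM, and its call was lost without any tumour but LPS 3 or 7 (adjusted p 0.0668 to 0.1). The bone and cartilage list lay the other way, with 5 of 8 differences negative and a median of -1.43. Its summed levels were 150 to 1149 FPKM in the Pparg-high and 505 to 2557 FPKM in the Pparg-low tumours. Most of that sum was Mgp in every tumour but LPS 3. Mgp read 214, 16.5 and 1109 FPKM in LPS 1, 3 and 7 against 470 to 2508 FPKM, overlapped between the sets and was not called (limma adjusted p = 0.301). Of the 16 genes listed, 5 were under 1 FPKM in every tumour. Of 21 adipose progenitor markers only Postn was called (median 0.23), beside 0.756% of all rows called higher. The lists of smooth muscle, lymphatic endothelial, granulocyte, skeletal muscle, epithelial, mesothelial and erythroid markers, basement membrane, FGF and IGF, Wnt, immediate early, Hox and other nuclear receptor genes had no call.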

How the data were processed

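FPKM values of 37750 gene loci in 12 libraries were deposited by the authors as 1 table, which gives no fragment counts. The submitters' processing notes name Cufflinks 2.2.1, Cuffdiff 2.2.1, TopHat2 2.1.0, Bowtie2, Trimmomatic and build GRCm38, without saying what each did. The sources used here do not say whether FPKM were scaled between libraries. Reads shared by near-identical copies or overlapping loci may be split, 828 rows join several names and were left out of the gene lists, and a listed 0 can be a failed estimate.

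The tumour sets were made from the Pparg FPKM. Tumours, gene lists and named genes were chosen with earlier results of these data known, so a p-value describes the association of a row with that split in these 8 tumours. limma 3.58.1 (R 4.3.3; trend, robust empirical Bayes) was fitted two-sided to log2(FPKM + 1). Its p-values were adjusted by Benjamini-Hochberg over all rows tested, at 0.05. This scale understates changes near 1 FPKM. Comparisons with WAT used all 12 libraries and rows with 1 FPKM in at least 3. The rule for named genes took Pparg, Fabp4, Timp4 and Id4, the 15 largest called differences in each direction without overlap, the leading called members of each list (up to 2 a direction) with its most abundant uncalled one, and 10 genes of interest, and some of these are not reported here. Further genes, such as the neighbours, Ldhb, Igf1, Timp1 and Mrap, were added after their values were seen. On simulated data of 13895 genes the fit recovered 94% and 90% of changes of log2 -2 and 2, with 7 false calls. These changes were planted only in genes with a mean log2(FPKM + 1) above 3, with normal noise. The recovery therefore does not cover rows near 1 FPKM. Alternatives were another pseudocount, filters, scalings, weights, covariates, an exact permutation test and leaving out each library. Coordinates are GENCODE M21, tables were made in Python 3.11.15 and figures in matplotlib 3.10.9.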

Additional observations from a re-analysis of the deposited data

Results flagged for a closer look

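In 135 groups of 4 to 8 libraries of named genes, 15 had a highest library further from the others than Dixon's 95% limit for a group of that size, where chance flags about 1 group in 20. In the tumours as a whole, Plin1 was high in LPS 1 at 32.2 FPKM. In the Pparg-low set LPS 5 was highest for Adipoq (4.26 FPKM), Plin1 (1.71), Fst (2.68), Aff3 (0.352) and Tbx5 (0.142). LPS 8 was highest for Tgfbr3 (13.8 FPKM), Ntf3 (0.652) and Mamdc2 (0.189), LPS 6 for Pde10a (2.34) and LPS 2 for Nt5c1a (1.37). In WAT, WAT 4 was highest for Id4 (3.60 FPKM) and Col13a1 (1.74), WAT 1 for Ror2 (1.66) and WAT 3 for Ghrh (0.149).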

How the results depend on the processing

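Between the tumour sets, where the fit gave 105 rows higher and 19 lower, the counts were 382 and 113 with all 12 libraries in the fit, 180 and 50 with array quality weights, 51 and 9 with a filter of 5 FPKM, 67 and 4 with no filter, 97 and 33 with quantile normalization, and 101 and 8 with age as a covariate. The exact permutation test gave 0 and 0, as there are only 56 splits of the 8 tumours into 3 and 5. In it 1404 rows had an unadjusted p under 0.05. Leaving out 1 tumour gave 47 to 133 higher and 4 to 43 lower. It gave 51 and 4 without LPS 1, 47 and 5 without LPS 2, 65 and 14 without LPS 3, 56 and 7 without LPS 4, 121 and 43 without LPS 7 and 75 and 11 without LPS 8. The cause was not tested. Listed genes called were 36 with all 12 libraries, 22 with array quality weights, 7 with no filter, 0 by permutation and 4 to 18 without 1 tumour. A pseudocount of 0.1 moved the log2 difference of Id4 to 7.04 and of Timp4 to 7.68. Without 1 tumour Fabp4 gave 3.56 to 4.01, Id4 5.52 to 5.95 and Timp4 5.61 to 5.96. Among the named genes, calls were lost for Ghrh, Cd300lg, Fst, Tgfbr3 and Smagp with Xist as a covariate (adjusted p at most 0.0601), for Ghrh, Ror2, Pgf, Unc5b, Tgfb3, Alpl, Cd300lg and Fst with age (at most 0.0662), for Ghrh, Ror2, Alpl, Pex11a, Col13a1 and Heph with a filter of 5 FPKM (at most 0.0952), under which 9 others (Gm15270, Fst, Vldlr, Ptger3, Adrb1, Tbx5, Aff3, Phgdh and Ighv1-53) were not tested, for 13 with no filter (at most 0.0836), for Gm15270, Alpl, Fst and Vldlr with a pseudocount of 0.1 (at most 0.0841), and for Alpl and Fst with either other scaling (at most 0.0659). Array quality weights and plain empirical Bayes changed none of their calls. Notch1, not called, changed sign to 0.051 with age as a covariate, and without 1 tumour it ranged from -0.26 to 0.15, positive without LPS 2, 6 or 7. Cdkn2a, not called, ranged from -2.25 to 0.11, positive without LPS 3. Against WAT, leaving out 1 library gave 1967 to 2885 higher and 2866 to 3573 lower in the Pparg-high set, and 2409 to 3377 and 3955 to 4463 in the Pparg-low set. Quantile normalization moved the median difference of the Pparg-low set from WAT from -0.09 to 0.10.

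Replicate numbers are shared by WAT and LPS but not by the tumour sets, and the labels name no shared animal. Deviations of same-numbered libraries correlated at 0.02 to 0.10, and each WAT library correlated best with its own number. Whether the numbers pair the libraries in another way was not tested. With a replicate block the counts against WAT were 1763 higher and 2313 lower in the Pparg-high set and 1937 and 2974 in the Pparg-low set.

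The sets are 3 and 5 tumours split by a measured gene, and values near 0 depend on a depth that the table does not give.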
